A study of Homo sapiens with 2 samples.

Results

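DBH and PNMT, enzymes that make and use noradrenaline, and CYB561 and SCG5, genes of secretory granules, were followed in BE(2)C neuroblastoma cells given MYCN siRNA. They are the genes annotated with these 4 symbols among the 14812 genes named in the table, and each was read by 1 probe set. They were selected on the differences between these 2 arrays, so their levels and differences are a description and no test is given on them. The cells of the MYCN siRNA group were transfected with 1 siRNA against MYCN, named MYCN2, and those of the control siRNA group with non-targeting siRNA from another supplier. Both groups were BE(2)C, a clonal human neuroblastoma line with amplified MYCN, grown in DMEM with serum and transfected with Lipofectamine 2000, and RNA was taken 36 hours later. Each group is 1 culture on 1 Affymetrix Human Gene 2.0 ST array, and the control sample is titled as a reanalysis, with no further label. Loss of MYCN, any other target of this siRNA and the difference between the 2 cultures cannot be told apart in this design. The level of MYCN was not analysed here.

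Sympathetic neurons, adrenal chromaffin cells and many neuroblastomas make catecholamines from tyrosine. TH makes L-DOPA and DDC makes dopamine in the cytosol, and dopamine is then taken into granules, where DBH adds the hydroxyl group that turns it into noradrenaline. DBH is a copper enzyme that uses ascorbate, and CYB561 is the cytochrome of the granule membrane that passes electrons inward to regenerate this ascorbate. PNMT, a cytosolic enzyme, methylates noradrenaline to adrenaline in chromaffin cells that make adrenaline. SCG5, also called 7B2, is a granule chaperone that is needed for the maturation of the prohormone convertase PCSK2.

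Of the 4 genes, 3 were higher in the MYCN siRNA array and 1, PNMT, was lower. DBH, the noradrenaline enzyme, was 2.73-fold higher, and it was the 1 member past 2-fold. CYB561 was 1.70-fold higher. SCG5 was higher by 0.89 on the log2 scale, over a control value below the array median, so its fold is uncertain. In RNA of a whole culture, more RNA per cell and more cells that express a gene cannot be told apart. Of all 10592 measured genes, 2.21% passed 2-fold upward and 1.16% downward in the MYCN siRNA array, and at a threshold of 1.5-fold these shares were 8.81% and 5.79%. Measured genes are those that reached the median of all probe sets in 1 array or both. The choice of members used this contrast, so nothing is read from their count beside these shares.

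Values are log2 units as deposited, and each difference is MYCN siRNA minus control siRNA. The array medians were 4.55 with MYCN siRNA and 4.60 with control siRNA, and values near them are not shown to be above background. The 2 arrays correlated at r = 0.986 across probe sets, and the differences of the measured genes had a median of 0.01 and an SD of 0.43. With 1 array per group no difference has a replicate error. The one spread within the arrays is that between probe sets of the same gene, an SD of 0.32 per probe set from 374 genes with more than 1, which leaves out all spread between cultures. The noradrenergic neuroblastoma markers with values were TH, DBH, DDC, PHOX2A, HAND2, GATA3, ISL1, CHGA and CHGB, and all 9 lay above the median of both arrays.

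DBH lies on chromosome 9. It had a log2 level of 10.77 in the MYCN siRNA array, against 9.32 in the control siRNA array, a difference of 1.45. The DBH signal was therefore well above the array median in both cultures and higher with MYCN siRNA. Its difference ranked 40th from the top among the measured genes. It was 4.57 times the SD between probe sets. Among the 500 genes closest to DBH in mean level, differences had an SD of 0.35 and reached 1.07 at most, against 1.45 for DBH. DBH was selected on this contrast, so nothing is read from its place among these genes or all measured genes. The 250 bases before the annotated DBH start (RefSeq, GRCh38.p14, chr9:133636113-133636362, plus strand) are shown because DBH had the largest difference of the 4 genes, with 2 motif matches in capitals.

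DBH upstream: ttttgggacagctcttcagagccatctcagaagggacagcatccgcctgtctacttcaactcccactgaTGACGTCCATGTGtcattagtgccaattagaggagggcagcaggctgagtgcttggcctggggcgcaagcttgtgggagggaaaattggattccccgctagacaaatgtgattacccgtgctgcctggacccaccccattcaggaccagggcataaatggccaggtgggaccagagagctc

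The capitals are the letters TGACGTC, the core of a cAMP response element, followed directly and without overlap by CATGTG, a variant of the E-box that basic helix-loop-helix factors can bind. The first base of TGACGTC lay 181 bases before the start and that of CATGTG 174 bases before it. Of the 35116 upstream windows of the same length in the RefSeq promoter table, 3.12% held TGACGTC and 9.42% held CATGTG on either strand. The canonical E-box of MYC family dimers, CACGTG, did not occur in this DBH window and was found in 6.34% of all windows. ATTA, the core letters read by homeodomain factors such as PHOX2A, occurred 3 times in the DBH window on either strand, at 166, 156 and 71 bases before the start, and at least once in 47.4% of all windows. None of these matches overlapped another. The motifs were chosen after the DBH sequence had been seen, and a match of letters does not show binding.

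CYB561 lies on chromosome 17. Its log2 level was 10.10 in the MYCN siRNA array, against 9.33 in the control siRNA array, a difference of 0.77. Like DBH, it was well above the array median in both cultures. Its difference ranked 527th from the top of the measured genes and was 2.41 times the SD between probe sets. Among the 500 genes closest to CYB561 in mean level, 6 were at least as far above the control. CYB561 too was selected on this contrast, so nothing is read from these places. RefSeq gives CYB561 4 start sites in the promoter table, and 1 of them, the second counted from the most upstream, held 2 CACGTG matches in the 250 bases before it. The other 3 windows held none. The 30 bases around each match (RefSeq, GRCh38.p14, minus strand, chr17:63446458-63446487 and chr17:63446395-63446424) are shown because CACGTG is the letter sequence that MYC family dimers prefer, with the match in capitals.

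CYB561 distal E-box: ccgcggttcgccCACGTGcgggcccggagc

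CYB561 proximal E-box: gcggggacctggCACGTGcggggcagcccc

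The distal match began 169 bases and the proximal match 106 bases before this CYB561 start. Neither TGACGTC nor CATGTG occurred in any of the 4 CYB561 windows. ATTA occurred 3 times before the third CYB561 start, at 122, 111 and 69 bases, as often as before DBH, and not in the other CYB561 windows. Which of these starts BE(2)C cells use was not measured by the arrays.

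SCG5 lies on chromosome 15. Its log2 level was 5.25 in the MYCN siRNA array, against 4.36 in the control siRNA array, a difference of 0.89. SCG5 was thus 0.70 above the array median with MYCN siRNA and 0.24 below it with control siRNA, so it counted as measured through the MYCN siRNA array alone. Its control value is not shown to be above background, so no rank is given for it. The differences of the 500 genes closest to SCG5 in mean level, taken with no filter, had an SD of 0.34. When 16 was added to the linear values, which damps low signals, the SCG5 difference was 0.56. The 250 bases before the SCG5 start (RefSeq, GRCh38.p14, chr15:32641460-32641709, plus strand) are shown for contrast with DBH.

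SCG5 upstream: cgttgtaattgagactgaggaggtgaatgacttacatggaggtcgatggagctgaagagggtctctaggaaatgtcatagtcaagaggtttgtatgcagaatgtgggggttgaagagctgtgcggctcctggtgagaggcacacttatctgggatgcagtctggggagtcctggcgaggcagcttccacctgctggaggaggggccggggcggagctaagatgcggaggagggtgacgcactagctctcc

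This SCG5 window has no capitals because the 3 motifs capitalised above did not occur in it. It held ATTA once on either strand, 245 bases before the start. No match says only that these letters are not in this window.

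PNMT lies on chromosome 17. Its log2 level was 4.71 in the MYCN siRNA array, against 4.87 in the control siRNA array, a difference of −0.16. Both PNMT values lay within 0.27 of their array's median, so the adrenaline enzyme is not shown to be above background in either culture. The difference was −0.50 times the SD between probe sets. Of the 500 genes closest to PNMT in mean level, 315 had a higher difference or the same.

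**Figure D1:**
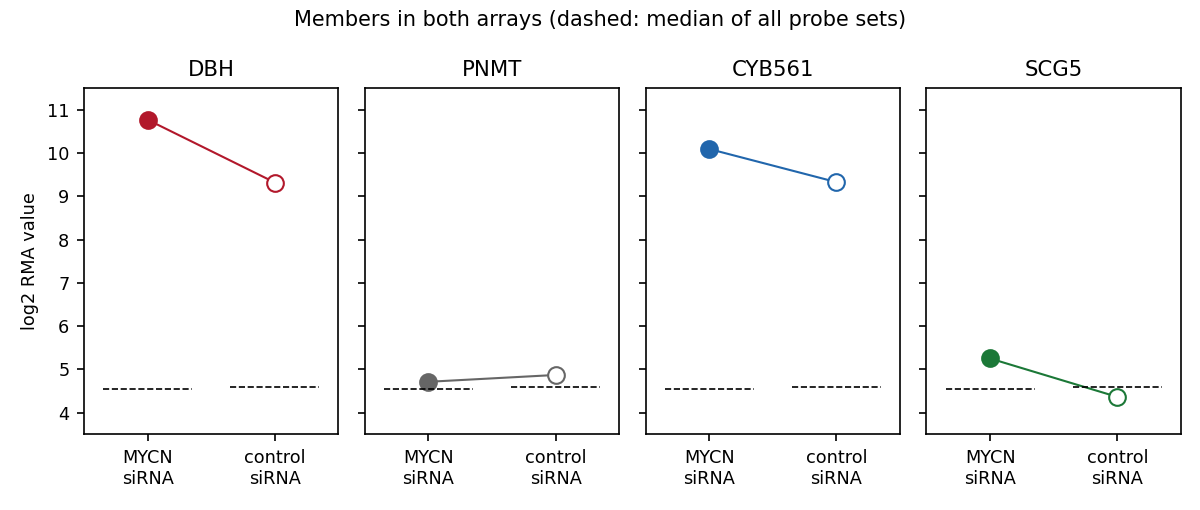
Log2 RMA value (y axis) of each of the 4 genes in the MYCN siRNA array (filled point, left) and the control siRNA array (open point, right), 1 array each. DBH and CYB561 lie far above the dashed array medians in both arrays, SCG5 crosses the median line, and PNMT stays next to it.

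**Figure D2:**
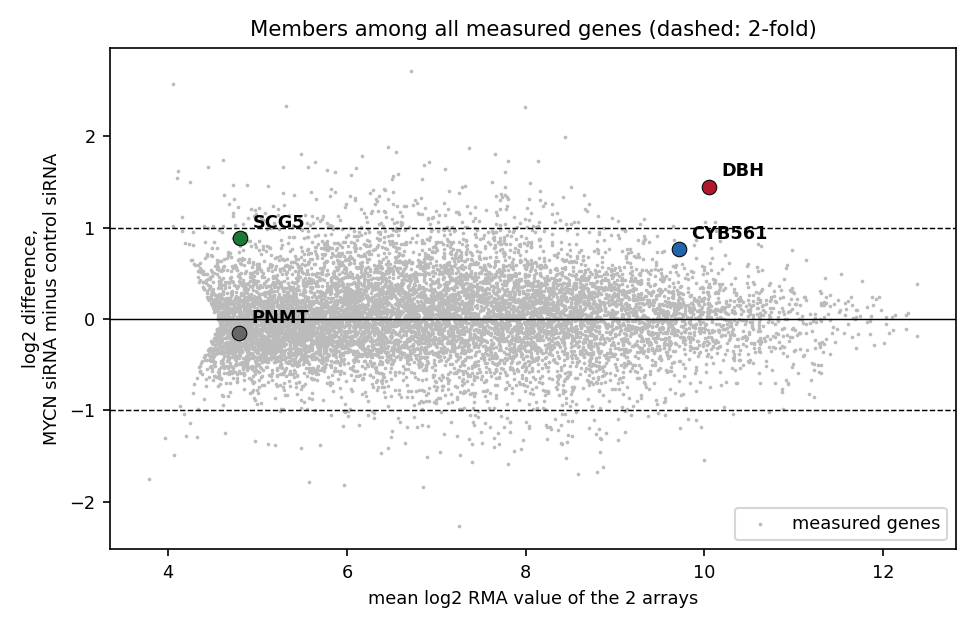
Log2 difference, MYCN siRNA minus control siRNA (y axis), against the mean log2 value of the 2 arrays (x axis) for the measured genes (grey) and the 4 genes (colour), with dashed lines at 2-fold. DBH, at 1.45, stands above the other genes of similar level, CYB561 and SCG5 lie below the 2-fold line, and PNMT lies at −0.16. The 4 genes were selected on this contrast.

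Within the pathway from tyrosine to adrenaline, DBH had the largest difference. TH, the first and rate-limiting enzyme, was at 6.53 in the MYCN siRNA array, against 6.47 in the control siRNA array (difference 0.06). DDC, which makes dopamine, was at 10.49 with MYCN siRNA, against 10.11 with control siRNA (difference 0.38). The DBH difference was larger than that of DDC by 1.07 and larger than that of TH by 1.395 on the log2 scale. Of the 4 enzymes, all measured, 3 were higher and 1 lower, with 1 past 2-fold, and the members DBH and PNMT were selected on these differences. Differences of TH and PNMT were smaller than the SD between probe sets, and that of DDC was slightly larger.

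The cofactor of TH, tetrahydrobiopterin, is made and recycled by a separate set of enzymes. Of its 7 genes, 6 had values and all 6 were measured, with 4 higher, 2 lower and none past 2-fold (median difference 0.26, or 0.06 with a 70th percentile filter; all measured genes, 0.01). GCH1, the first enzyme of this synthesis, was highest at 0.41, and QDPR, which recycles the cofactor, lowest at −0.21. Of 9 genes listed for ascorbate and electron supply, 5 had values. The 4 measured ones were all higher (median 0.57), none past 2-fold, beside 50.9% higher among all measured genes. CYB561 had the largest difference of the 4 and was selected on this contrast, so its place in this count was fixed in advance. Whether the others supply electrons to DBH was not tested. Its relative CYB561D2 had the smallest, at 7.01 with MYCN siRNA, against 6.89 with control siRNA (difference 0.12). CYB561D1, another family member, was at 6.76 with MYCN siRNA, against 6.26 with control siRNA (difference 0.50). FRRS1, a ferric reductase with a cytochrome b561 domain, was at 0.65. CYBRD1, the duodenal ferric reductase of the same family, lay below both array medians and so was left out of this count. It was lower with MYCN siRNA, at a difference of −0.32.

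SCG5 belongs to the granins, the acidic proteins that fill dense-core granules. All 7 listed granins were measured and all 7 were higher in the MYCN siRNA array, none past 2-fold, with a median difference of 0.23. SCG5 was selected on this contrast and measured through the MYCN siRNA array alone, so its place in this count was fixed in advance. SCG5 had the largest difference, and the other 6 lay above the median of both arrays. PCSK1N, the granin-like inhibitor of the convertase PCSK1, was at 8.79 with MYCN siRNA, against 8.27 with control siRNA (difference 0.53). CHGA, chromogranin A, was at 10.64 with MYCN siRNA, against 10.45 with control siRNA (difference 0.19), and SCG3, which ties granins to the granule membrane, was lowest at 0.17. The remaining granins CHGB, SCG2 and VGF were at 0.30, 0.23 and 0.18. Apart from SCG5 and PCSK1N, each granin difference was smaller than the SD between probe sets. Of all measured genes, 50.9% were higher with MYCN siRNA.

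PCSK2, the convertase that SCG5 serves, and PCSK1 were not analysed here. Of 12 genes that cut and modify prohormones, 10 had values and 8 were measured, 6 of them higher and 2 lower, with none past 2-fold and a median of 0.16. QPCT, which forms the N-terminal pyroglutamate of peptides, was highest at 0.68, from values of 5.04 with MYCN siRNA, against 4.36 with control siRNA. Like SCG5, QPCT was below the control median and counted as measured through the MYCN siRNA array alone. PCSK6 was lowest at −0.34. PAM, which amidates peptides and like DBH needs copper and ascorbate, was at 8.84 with MYCN siRNA, against 8.85 with control siRNA.

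**Figure D3:**
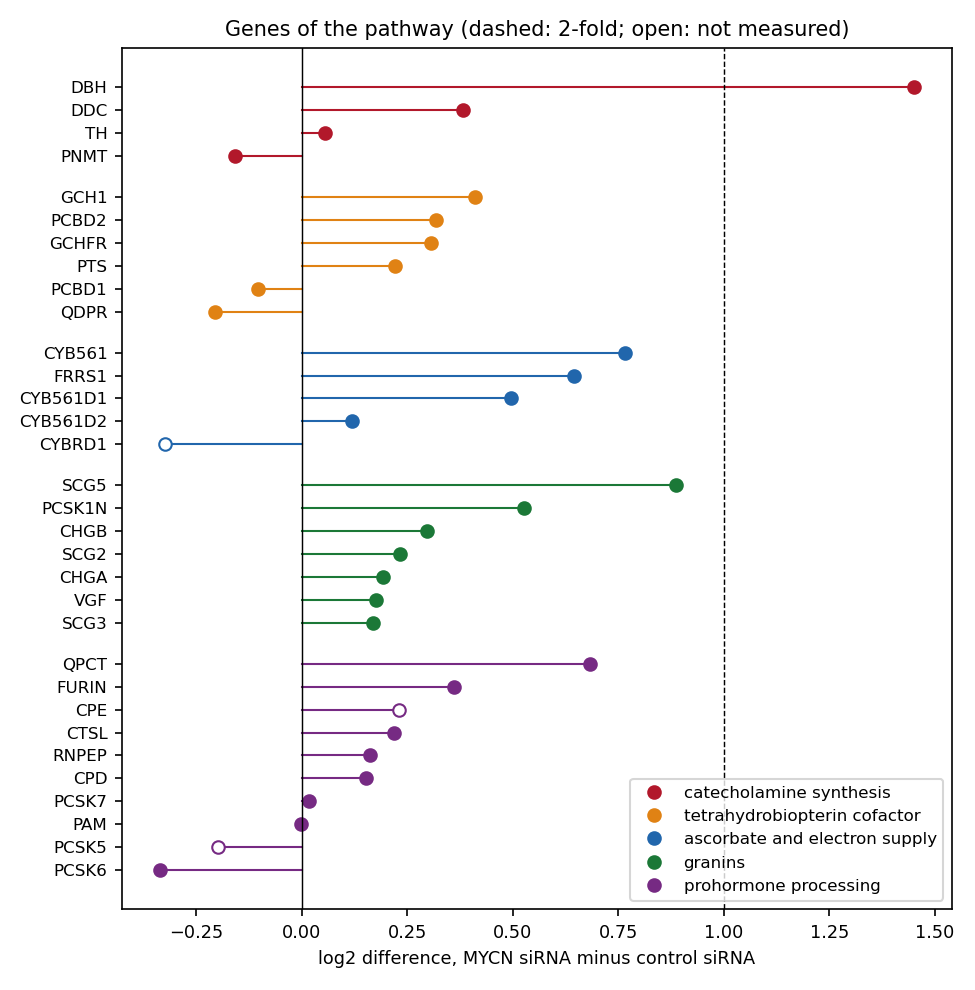
Log2 difference, MYCN siRNA minus control siRNA (x axis), of the genes with values in 5 lists (colour), 1 row per gene, with open points for genes not measured and a dashed line at 2-fold. DBH, at 1.45, is past 2-fold, the 7 granins are all right of 0, and PNMT is left of it. DBH, PNMT, CYB561 and SCG5 were selected on this contrast.

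The factors that set noradrenergic identity had small differences beside that of DBH. Of 15 listed factors 12 had values and 11 were measured, with 6 higher, 5 lower, none past 2-fold and a median of 0.08. GATA2 was highest at 0.23. ISL1, a LIM-homeodomain factor read by 2 probe sets, was lowest at −0.43, with −0.25 and −0.60 from its probe sets. PHOX2A, a homeodomain activator of DBH, was at 9.14 with MYCN siRNA, against 9.01 with control siRNA (difference 0.12). HAND2 and GATA3 were at −0.09 and 0.08. Among 10 genes listed as regulators of TH and PNMT, 7 were measured, 5 higher and 2 lower, none past 2-fold, with a median of 0.03. EGR1, an activator of the PNMT gene, was highest at 0.46, the mean of 2 probe sets that disagreed, and FOSL1 was lowest at −0.11. The brighter EGR1 probe set was at 8.81 with MYCN siRNA, against 7.79 with control siRNA (difference 1.02), and the other, close to the array medians, had a difference of −0.10.

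On the chromosomes, the nearest protein-coding genes with a value on each side of the members, looked up after the member values were known, gave a mixed picture. Next to DBH, with 1 coding gene between on each side, ADAMTSL2 had a difference of 0.43 and VAV2 one of 0.76, from 8.997 with MYCN siRNA, against 8.24 with control siRNA. Both were higher, by less than DBH. ACE, the gene directly beside CYB561, was at 9.94 with MYCN siRNA, against 9.36 with control siRNA (difference 0.59), and TLK2, on the other side with 3 coding genes between, was at 0.22. GREM1, directly beside SCG5, had a difference of −0.32, opposite in sign to SCG5, and ARHGAP11A on its other side was at 0.21. Beside PNMT, TCAP was at −0.44 and PGAP3 at 0.15.

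**Figure D4:**
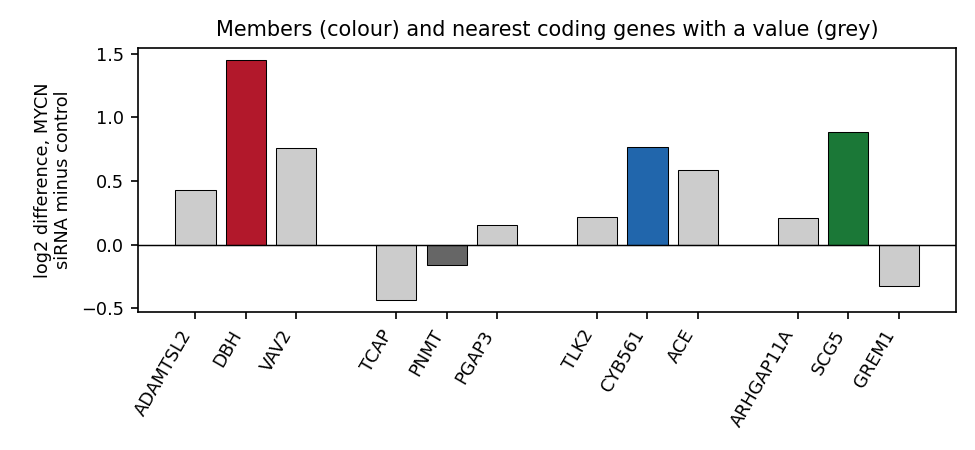
Log2 difference, MYCN siRNA minus control siRNA (y axis), of each of the 4 genes (colour) between its nearest protein-coding genes with a value in chromosome order (grey). VAV2 beside DBH (0.76) and ACE beside CYB561 (0.59) are higher too, while GREM1 beside SCG5 is lower (−0.32).

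The genes with the most similar pair of values were found by Euclidean distance over the 2 arrays among measured protein-coding genes. Closest to DBH were ABHD2, MMD and FNDC3A, at distances of 0.28, 0.29 and 0.36, with differences of 1.07, 1.06 and 0.97. The nearest to PNMT were SHISA2, COX6B2 and CDH23, all within 0.02 of it. The nearest to CYB561 were CILK1, STC1 and ITFG1, at 0.10, 0.13 and 0.13. The nearest to SCG5 were MTMR7, AZIN2 and PLIN2, at 0.08, 0.10 and 0.11.

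Markers of other cell types were set beside these values. Of 8 haematopoietic and endothelial markers, 4 had values, all 4 measured, 2 higher and 2 lower, and their linear values summed to 573 with MYCN siRNA, against 229 with control siRNA. CD68, a lysosomal protein abundant in macrophages, alone differed by more than that gap, at 9.0 with MYCN siRNA, against 7.27 with control siRNA (difference 1.74, past 2-fold), and the other 3 markers summed to 60.8 with MYCN siRNA, against 75.2 with control siRNA. KDR was lowest at −0.65, with a MYCN siRNA value below the array median. PTPRC, CD3E, PECAM1 and CDH5 were not analysed here. Of 8 Schwann and glial markers, 5 were measured, 1 higher and 3 lower, with summed linear values of 277 with MYCN siRNA, against 239 with control siRNA. Of these only S100B was higher, so the higher sum comes from it. S100B was past 2-fold at 1.02, though 0.98 after quantile normalization and 0.86 with the offset of 16, and SOX10, the defining factor, was lowest at −0.28. For the adrenal cortex, whose steroids induce PNMT in the gland, 2 of 8 markers had values, summing to 64.5 with MYCN siRNA, against 53.5 with control siRNA, and STAR, the 1 measured, was at 0.35. The 10 mesenchymal neuroblastoma markers summed to 2431 with MYCN siRNA, against 2883 with control siRNA. SNAI2 alone was at 1814 with MYCN siRNA, against 2306 with control siRNA, and the other 9 summed to 617 with MYCN siRNA, against 577 with control siRNA. Of their 7 measured genes 3 were higher and 3 lower, from PRRX1 at −0.51, below the MYCN siRNA median, to VIM at 0.57 (mean of 3 probe sets, at 0.85, −0.06 and 0.91), and the median was 0.00, with a sign that changed under other scalings. Of 8 fibroblast markers, 3 had values, summing to 212 with MYCN siRNA, against 247 with control siRNA. Of these only LUM was lower, so the lower sum comes from it. LUM was past 2-fold lower at −1.17, though −0.92 with the offset, and THY1 was at 0.10. The part of these markers in the values of DBH, CYB561 and SCG5 was not tested.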

How the data were processed

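RNA (100 ng) was labelled with the Affymetrix WT PLUS kit and hybridised to 1-colour arrays, per the labels' protocols. The authors deposited log2 values, 1 for each probe set on each array, which RMA produced per the submitters' processing notes. Its software and settings were not given in the sources used here. Sorted values of both arrays lay within 0.128 of each other, so a change in total RNA cannot be seen. The platform annotation named 15835 of 46255 probe sets, and all of these were found in RefSeq's gene table (GRCh38.p14), used for symbols, chromosomes and gene order. Probe sets of a gene were averaged.

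Members and the 18 gene lists were chosen with earlier results of these data known. Named genes were the 4 members, the 4 synthesis enzymes, the 7 granins, each list's highest and lowest measured gene and any past 2-fold, and for each member the 3 measured coding genes nearest in both arrays. Other genes named (PAM, HAND2, GATA3, PHOX2A, CYB561D1, FRRS1, CYBRD1, SNAI2 and the chromosome neighbours) were chosen after their values were seen. A median is given for lists with at least 3 measured genes. No p-value was computed, with 1 array per group, and 2 arrays limit the precision. Alternatives were median centring, quantile and loess scaling (span 0.3, statsmodels 0.14.6), the brightest probe set, an offset of 16, no filter or a 70th percentile filter, and a 1.5-fold threshold. The scripts (Python 3.11.15, pandas 2.3.3) were tested on simulated data. Of 181 listed genes, 106 had a value and 89 were measured.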

Additional observations from a re-analysis of the deposited data

How the results depend on the processing

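All 4 members kept their sign under median centring, quantile normalization and loess. The brightest probe set left them unchanged because each has 1 probe set, and the offset of 16 cannot change a sign. Over these alternatives DBH ranged from 1.43 to 1.504, CYB561 from 0.75 to 0.82, SCG5 from 0.56 to 0.96 and PNMT from −0.16 to −0.09. The 0.56 of SCG5 came with the offset of 16, which damps low signals by construction. Of the 89 listed genes measured, 3 were past 2-fold higher and 3 past 2-fold lower, beside 2.21% and 1.16% of all measured genes. With the offset 1 was lower, and at 1.5-fold 8 were higher and 6 lower, beside 8.81% and 5.79% of all. DBH is among the 3 higher, and DBH, CYB561 and SCG5, all selected on this contrast, are among the 8. The lists were chosen with earlier results known, so nothing is read from these counts. Of 125 values recomputed over 8 alternatives, 121 stayed within 1 SD between probe sets or, for counts, within 1.5 times. The 4 that moved were SCG5 and the lower count with the offset, and both counts at 1.5-fold. The SD is larger than most list medians, so staying within it says little about them. Within that SD, some small medians moved by over 1.5 times. With the 70th percentile filter, tetrahydrobiopterin was at 0.06 (0.26 as deposited), catecholamine synthesis at 0.38 (0.22) and regulators of TH and PNMT at 0.09 (0.03). With no filter, peptide cargo was at −0.17 (−0.34), docking at 0.06 (0.13) and noradrenergic factors at 0.03 (0.08). Median centring gave noradrenergic factors 0.13 and the regulators 0.08, loess gave the regulators 0.01, and haematopoietic and endothelial markers were at −0.11 after loess and −0.10 with the offset (−0.18). The one list median that changed sign was that of the mesenchymal markers, from 0.00 to values between −0.03 and 0.06. No paired analysis was possible because each group has 1 array. Signal over background limits SCG5 and PNMT, whose values lie near the array medians.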

Other observations

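Peptides stored in granules went both ways. Of 14 peptides that dense-core granules can carry, 13 had values and 9 were measured, with 3 higher, 5 lower and SST at 0.00 in the MYCN siRNA array and a median difference of −0.34, or −0.17 with no filter. NPPC, the C-type natriuretic peptide, was 1.16 lower on the log2 scale, at 6.26 with MYCN siRNA, against 7.42 with control siRNA, and was the 1 peptide past 2-fold. NPPB, the B-type natriuretic peptide, was highest at 0.31. Among 20 genes of granule docking and release, 11 had values and 9 were measured, 6 higher and 3 lower, none past 2-fold, with a median of 0.13. HID1, which takes part in making dense-core granules, was highest at 0.92, from 6.95 with MYCN siRNA, against 6.03 with control siRNA, and SYT7, a calcium sensor of release, was lowest at −0.22.

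DBH needs copper. Of 8 genes that carry or bind copper, 4 were measured, 3 higher and 1 lower, with a median of 0.17. MT2A, a metallothionein, was past 2-fold lower, at 8.05 with MYCN siRNA, against 9.07 with control siRNA (difference −1.02; −0.97 after median centring and −0.98 with an offset of 16 on the linear values), and its value is uncertain because the family has near-identical members. COX17, the chaperone that brings copper to cytochrome oxidase, was highest at 0.29. Of 9 genes of catecholamine breakdown, 3 had values and 1 was measured, the aldehyde dehydrogenase ALDH2 at 0.42, and both monoamine oxidases lay below the array medians. The 6 listed catecholamine transporters and the 18 listed subunits of the granule proton pump were not analysed here.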
